A study of Mus musculus with 7 samples.

Results

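A set of 10 genes of transforming growth factor beta (TGF-beta), activin and bone morphogenetic protein (BMP) signalling were followed: the ligands Tgfb1, Tgfb2, Tgfb3, Inhba and Bmp4, the secreted antagonist Fst, the receptors Acvr2a and Acvr2b, and the inhibitory Smads Smad6 and Smad7. They were chosen by name, with earlier results of these data known, and all 10 had a row among the 13376 rows of the expression table. RNA was measured in C2C12 cells, an established mouse myoblast line, kept proliferating. Groups of 2 libraries each were compared: cells treated with an siRNA against the long noncoding RNA lnc-31, and cells treated with a scrambled siRNA. The labels give no siRNA dose or time and do not state whether separate cultures were used for each library. The p-values therefore set the difference between the groups against the spread of these libraries within a group, partly pooled with that of rows of similar level. That spread may be technical. A further experiment recovered RNA with biotinylated probes against lnc-31 or, as background, against bacterial lacZ, with 1 library per probe set.

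Ligands of this family are secreted as dimers that bind a type II receptor kinase, which phosphorylates a type I receptor, which in turn phosphorylates receptor Smads. TGF-beta and activin signal mainly through Smad2 and Smad3, BMP mainly through Smad1, Smad5 and Smad9, and both branches share Smad4. Smad6 and Smad7 are induced by the pathway and block it. In muscle, TGF-beta, activin and myostatin are known to restrain myoblast differentiation, follistatin is known to relieve the activin and myostatin brake, and BMP can divert C2C12 cells towards the osteoblast fate.

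Levels are given in FPKM (fragments per unit of transcript length, scaled by how many fragments were mapped), so genes can be compared per length. The number of reads behind them is unknown, and the precision rests on the spread between libraries. No row is named lnc-31. The row naming Mir31, the microRNA hosted at its locus, also names XLOC_026180, so its values cannot be given to the microRNA alone. This row stood at 12.1 and 14.1 FPKM with lnc-31 siRNA, against 13.4 and 15.6 FPKM with scrambled siRNA (log2 fold change -0.14, SE 0.099, adjusted p = 0.38 by limma). A knockdown of lnc-31 was thus not seen in this row, and directions below are those of libraries labelled lnc-31 siRNA. In a principal component analysis 41.4% of the variance lay along an axis on which the first lnc-31 siRNA library scored 39.1 and the other 3 libraries -16.3 to -10.4. Scrambled siRNA 2 also stood apart, with 395110 FPKM in the mitochondrial row mt-Nd2, against 2876 to 3401 FPKM elsewhere, and the highest summed FPKM (2466050, against 1515600 in scrambled siRNA 1). Markers of the myoblast type were present in 7 of 8 listed genes, with summed levels of 502 and 512 FPKM with lnc-31 siRNA, against 433 and 439 FPKM with scrambled siRNA. By limma 4 of these 7 were called higher (Myod1, Des, Cdh15 and Chrna1) and 1 lower (Vcam1), beside 5.64% and 6.78% of all tested rows. Of the markers not called, Itga7 was higher and Myf5 lower in both lnc-31 siRNA libraries than in either scrambled siRNA library. Of 8 listed fibroblast markers 5 had a row, with summed levels of 754 and 736 FPKM with lnc-31 siRNA and 636 and 648 FPKM with scrambled siRNA. Most of this sum came from Col1a1 (598 and 571 FPKM with lnc-31 siRNA, against 483 and 494 FPKM with scrambled siRNA). By limma 3 were called higher (Pdgfrb, Col1a1 and Dcn). Of those not called, Pdgfra was higher and Ly6a lower in both lnc-31 siRNA libraries. All these libraries come from the C2C12 line, so the markers do not show that fibroblasts were present. The part of either shift in the results below was not tested, and in such bulk libraries a change in the share of a cell type cannot be told apart from a change in RNA per cell.

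Among the 10 genes Tgfb1 was the most abundant and Acvr2b the least. The order of mean levels over the 4 libraries was Tgfb1 (29.96 FPKM), Tgfb3 (17.1), Inhba (13.2), Tgfb2 (11.2), Acvr2a (7.71), Smad7 (7.57), Fst (3.48), Smad6 (2.64), Bmp4 (0.539) and Acvr2b (0.398). The ranges over the 4 libraries overlapped between Inhba and Tgfb2, between Acvr2a and Smad7, between Fst and Smad6, and between Bmp4 and Acvr2b, so these neighbours were not separated beyond their spread. The ranges of the other neighbours in this order did not overlap. Bmp4 and Acvr2b lay under the filter of a mean of 1 FPKM and were not tested, which leaves 8 tested genes.

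**Figure D1:**
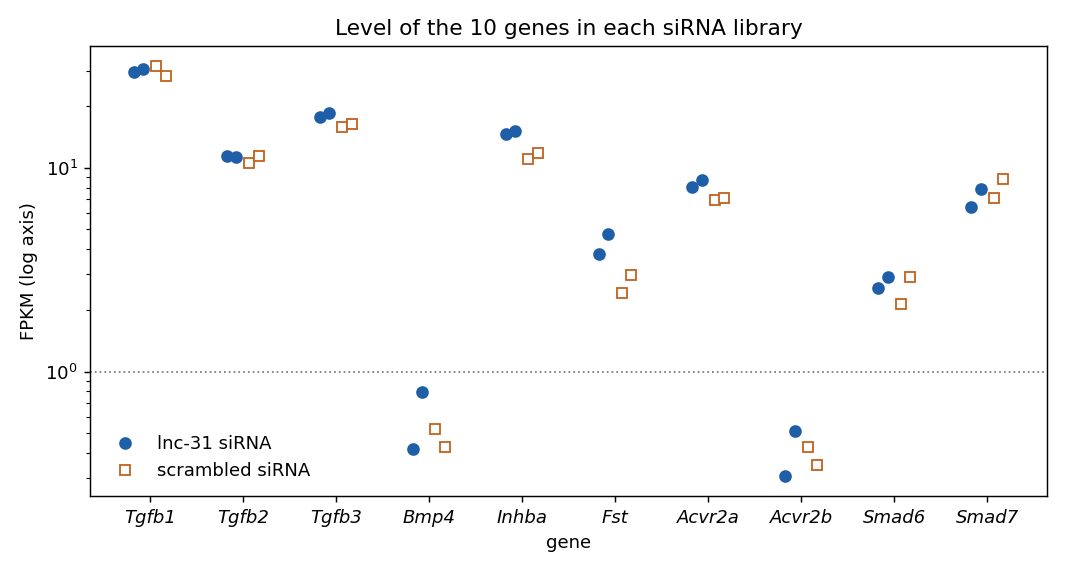
Level of each gene in FPKM on a log axis, 1 point per library, with lnc-31 siRNA as filled circles left of scrambled siRNA as open squares; the dotted line marks the filter at a mean of 1 FPKM. Tgfb1 lies at 28.2 to 31.5 FPKM, while Bmp4 and Acvr2b stay below 1 FPKM in all 4 libraries.

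Inhba, which encodes the activin A subunit, was the only one of the 10 genes that passed the test. It stood at 14.6 and 15.2 FPKM with lnc-31 siRNA, against 11.02 and 11.86 FPKM with scrambled siRNA. Both lnc-31 siRNA libraries lay above both scrambled siRNA libraries. The log2 fold change, on the scale of log2(FPKM + 1) used throughout, was 0.35 (SE 0.058, adjusted p = 0.022 by limma over all 11500 tested rows), or 1.28-fold. The call was lost with any 1 library left out: leaving out lnc-31 siRNA 1 gave an adjusted p of 0.055, lnc-31 siRNA 2 0.087, scrambled siRNA 1 0.091 and scrambled siRNA 2 0.052, while the log2 fold change stayed between 0.30 and 0.40. Thus 1 of 8 tested genes was called higher and none lower, with 4 of the 8 at an unadjusted p under 0.05 (Inhba, Fst, Acvr2a and Tgfb3). Over all tested rows 5.64% were called higher and 6.78% lower, and 14.5% were higher and 16.4% lower at an unadjusted p under 0.05. A share of 1 in 8 rests on a single gene and is no result about the set.

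Inhba lies on chromosome 13 (16004256 to 16031609, GRCm38, which shares coordinates with mm10, the build named in the submitters' notes). The 250 bases before the RefSeq start of Inhba are shown because it is the gene that was called, with the same stretch of Acvr2a, the type II receptor for its product. Capitals mark a TATAAA sequence, which begins 91 bases before the Inhba start. RefSeq places the start used here inside the gene span, and other Inhba starts were not searched.
Inhba (chr13:16011601-16011850, plus strand): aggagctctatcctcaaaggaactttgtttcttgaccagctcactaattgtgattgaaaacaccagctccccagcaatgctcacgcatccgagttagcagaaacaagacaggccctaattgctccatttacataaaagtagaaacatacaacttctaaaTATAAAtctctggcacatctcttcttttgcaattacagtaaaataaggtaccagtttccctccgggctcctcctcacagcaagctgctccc
Acvr2a (chr2:48813859-48814108, plus strand): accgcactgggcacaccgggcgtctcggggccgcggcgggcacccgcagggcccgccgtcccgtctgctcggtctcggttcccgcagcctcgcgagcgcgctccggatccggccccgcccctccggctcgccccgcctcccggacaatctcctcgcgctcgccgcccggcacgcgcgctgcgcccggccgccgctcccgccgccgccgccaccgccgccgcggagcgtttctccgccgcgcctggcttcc
G and C made up 43.2% of the Inhba stretch, against 82.0% of the Acvr2a stretch and a median of 52.4% over all RefSeq windows. A window of 300 bases, 250 before and 50 after the start, was found for 7 of the 10 genes and searched on both strands for 6 motifs. These were the SMAD palindrome GTCTAGAC, the GC-rich SMAD element GGCGCC, the AP-1 site TGANTCA, the cAMP response element TGACGTCA, the MyoD-type E-box CAGCTG and TATAAA. No 2 of these matches overlapped. TATAAA was found in Inhba and Tgfb2, and in 13.6% of all 32851 windows. The windows of Tgfb3, Fst and Smad7 were not searched.

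Tgfb3, a TGF-beta isoform encoded on chromosome 12 (86056743 to 86079041, GRCm38), stood at 17.7 and 18.5 FPKM with lnc-31 siRNA and at 15.8 and 16.5 FPKM with scrambled siRNA. The groups did not overlap, but the log2 fold change of 0.16 (SE 0.052) did not pass (limma, adjusted p = 0.11). Tgfb1, the most widely expressed isoform, stood at 29.6 and 30.6 FPKM with lnc-31 siRNA and at 31.5 and 28.2 FPKM with scrambled siRNA. Its groups overlapped, and the log2 fold change was 0.01 (SE 0.062, limma adjusted p = 0.92). Tgfb2 stood at 11.5 and 11.3 FPKM with lnc-31 siRNA, against 10.5 and 11.5 FPKM with scrambled siRNA, with a log2 fold change of 0.05 (SE 0.061, limma adjusted p = 0.66). The scrambled siRNA libraries of Tgfb2 enclosed both lnc-31 siRNA values.

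Taken as a share of the summed FPKM of the 3 TGF-beta isoforms, Tgfb1 made up 50.5% ± 0.175 with lnc-31 siRNA and 52.4% ± 2.99 with scrambled siRNA (SD, n = 2 each). Tgfb3 made up 30.1% and 30.7% with lnc-31 siRNA, against 27.3% and 29.3% with scrambled siRNA. Tgfb2 made up 19.5% and 18.7% with lnc-31 siRNA, against 18.2% and 20.4% with scrambled siRNA. Only the Tgfb3 share was without overlap between the groups. The sum itself was 58.7 and 60.4 FPKM with lnc-31 siRNA, against 57.7 and 56.2 FPKM with scrambled siRNA, again without overlap. Neither the share nor the sum was tested, and groups were apart with higher values in lnc-31 siRNA in 28.5% of all tested rows.

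Bmp4, the BMP ligand of the set, stood at 0.415 and 0.791 FPKM with lnc-31 siRNA and at 0.522 and 0.428 FPKM with scrambled siRNA. The 2 lnc-31 siRNA libraries were the lowest and the highest of the 4. In a fit with no filter on low values its log2 fold change was 0.11 (SE 0.14, limma adjusted p = 0.65).

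Fst encodes follistatin, which binds activin and myostatin outside the cell, and lies on the same chromosome as Inhba (chromosome 13, 114452262 to 114458989). It had the largest fold change of the 8 tested genes and did not pass the test. Its level was 3.77 and 4.73 FPKM with lnc-31 siRNA, against 2.42 and 2.97 FPKM with scrambled siRNA. The groups did not overlap. The log2 fold change was 0.50 (SE 0.12, limma adjusted p = 0.056), or 1.42-fold. Among the other scalings and filters it was past the threshold under quantile normalization (adjusted p = 0.047) and median of ratios scaling (0.039), and not with any 1 library left out (0.053 to 0.18).

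Levels of the antagonist and of its ligand were both higher in each lnc-31 siRNA library than in either scrambled siRNA library. The ratio of Fst to Inhba in FPKM was 0.259 and 0.312 with lnc-31 siRNA, against 0.22 and 0.251 with scrambled siRNA. The ratio did not overlap between groups, and a two-sided exact permutation test gave p = 0.33, the smallest that 2 libraries against 2 can give.

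Acvr2a and Acvr2b encode the type II receptors that bind activins and myostatin. Acvr2a (chromosome 2, 48814109 to 48903264) stood at 8.08 and 8.68 FPKM with lnc-31 siRNA and at 6.99 and 7.08 FPKM with scrambled siRNA. The groups did not overlap, with a log2 fold change of 0.22 (SE 0.062) and an adjusted p of 0.074 by limma. Median of ratios scaling alone brought Acvr2a past the threshold (adjusted p = 0.045). Acvr2b (chromosome 9, 119401583 to 119442148) stood at 0.308 and 0.511 FPKM with lnc-31 siRNA, against 0.425 and 0.346 FPKM with scrambled siRNA. Its lnc-31 siRNA libraries were the lowest and the highest of the 4, and without the filter its log2 fold change was 0.02 (SE 0.11, limma adjusted p = 0.92). In each library Acvr2a was at least 16.4 times as high as Acvr2b in FPKM. The ratio was 26.2 and 16.99 with lnc-31 siRNA, against 16.4 and 20.5 with scrambled siRNA, and overlapped between groups.

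**Figure D2:**
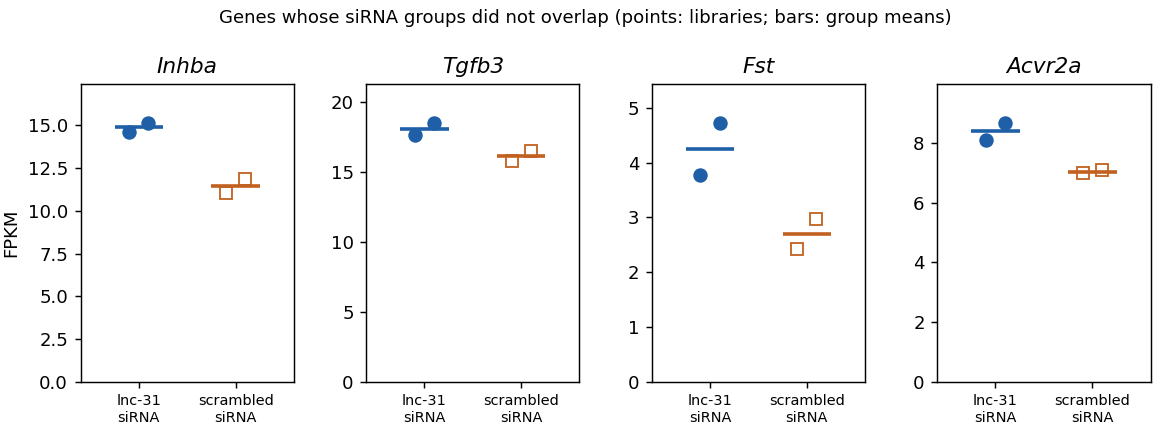
FPKM of Inhba, Tgfb3, Fst and Acvr2a in each library, on linear axes from 0, with lnc-31 siRNA at the left and scrambled siRNA at the right of each panel; bars are group means of 2 libraries. In all 4 panels both lnc-31 siRNA libraries lie above both scrambled siRNA libraries, and Inhba alone passed the test.

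The 4 genes without overlap between the groups, all higher with lnc-31 siRNA, were Inhba, Fst, Acvr2a and Tgfb3. Over all tested rows the groups were apart with higher values in lnc-31 siRNA in 28.5% and with lower values in 31.7%, so such separation was common. The median log2 fold change was 0.13 over the 8 tested genes and -0.01 over all tested rows.

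Smad7, an inhibitory Smad that acts on receptors of all branches, stood at 6.43 and 7.86 FPKM with lnc-31 siRNA and at 7.14 and 8.83 FPKM with scrambled siRNA. The groups overlapped, and the log2 fold change of -0.14 (SE 0.12) did not pass (limma, adjusted p = 0.49). With 1 library left out this value ran from -0.28 to -0.0051, still without a call. Smad6, which acts mainly on the BMP branch, stood at 2.57 and 2.92 FPKM with lnc-31 siRNA, against 2.15 and 2.90 FPKM with scrambled siRNA. Its groups overlapped as well, with a log2 fold change of 0.10 (SE 0.13, limma adjusted p = 0.65). In both genes the second library of each group was the higher one. The ratio of Smad7 to Smad6 was 2.50 and 2.69 with lnc-31 siRNA and 3.32 and 3.05 with scrambled siRNA, without overlap. This ratio was not tested, and groups were apart with lower values in lnc-31 siRNA in 31.7% of all tested rows.

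The Smad6 window held the SMAD palindrome, shown here because Smad6 is a feedback target of the pathway and no other window searched among these genes held it. It was found in 0.213% of all RefSeq windows. The capitals mark the palindrome, which begins 4 bases before the start used here and crosses it. That start lies inside the Smad6 gene span, which ends at 64022085, so the site is placed against this start only.
Smad6 (chr9:64022045-64022074, minus strand): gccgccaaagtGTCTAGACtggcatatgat

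**Figure D3:**
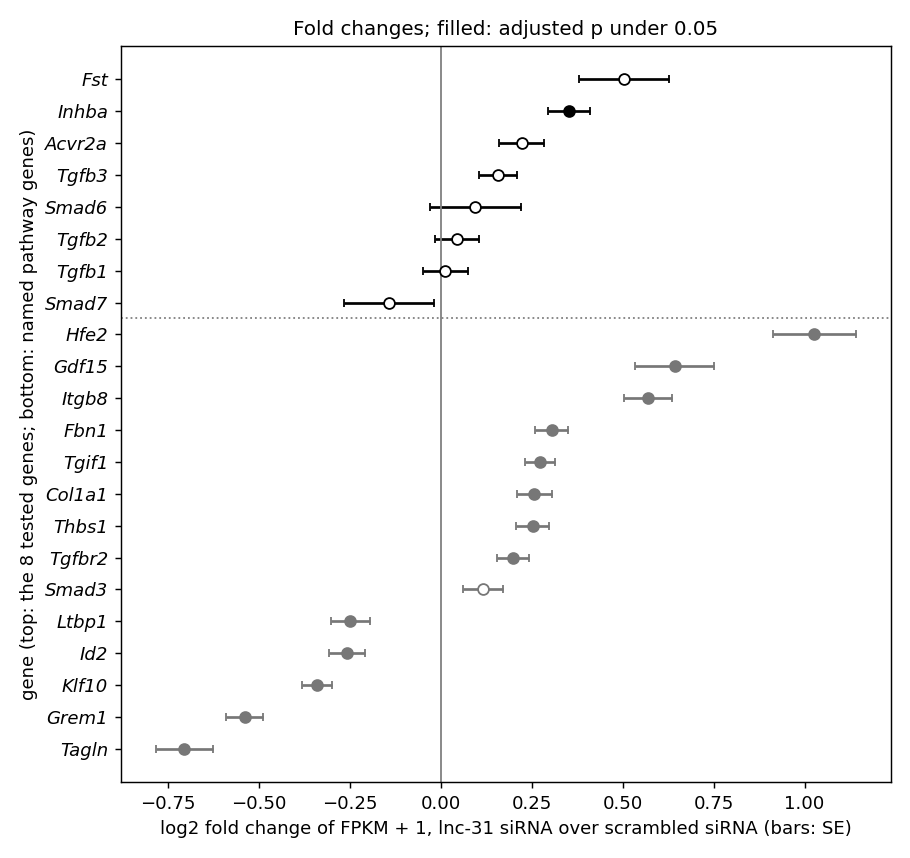
Log2 fold change of FPKM + 1, lnc-31 siRNA over scrambled siRNA, with SE from limma, for the 8 tested genes above the dotted line and for named genes of the rest of the pathway below it. Filled points have an adjusted p under 0.05: Inhba is the only filled point above the line, and below it values run from -0.70 (Tagln) to 1.03 (Hfe2).

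The rest of the pathway was described with lists by role, made with earlier results of these data known, so shares called within them are descriptive only. Of 130 further genes listed, 93 had a row and 80 were tested. By limma 8 of these rose and 9 fell (11.25%), beside 5.64% and 6.78% of all tested rows, and their median log2 fold change was 0.02. Under median of ratios scaling 14 rose and 9 fell, and under quantile normalization 12 rose and 9 fell. With 1 library left out 2 to 4 rose and 2 to 4 fell. With a constant prior variance 7 rose and 3 fell, and Thbs1 (adjusted p = 0.055), Tgfbr2 (0.072), Ltbp1 (0.064), Ltbp2 (0.062), Ctgf (0.0501), Acta2 (0.058), Ankrd1 (0.058) and Id2 (0.058) lost their calls. The counts by list below stand beside the same 5.64% higher and 6.78% lower of all tested rows. Each rests on few genes and is no result about its list.

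Among the other ligands 4 were tested and 1 rose. Gdf15, a distant member of the family that is induced by cell stress, stood at 27.1 and 31.7 FPKM with lnc-31 siRNA and at 20.2 and 16.8 FPKM with scrambled siRNA (log2 fold change 0.64, limma adjusted p = 0.023). Leaving out lnc-31 siRNA 2 (adjusted p = 0.065) or scrambled siRNA 2 (0.066) ended its call.

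Of 11 tested genes of ligand latency and activation, 3 rose and 2 fell. Itgb8, the integrin beta subunit that with the alpha v subunit binds latent TGF-beta, stood at 6.41 and 6.58 FPKM with lnc-31 siRNA, against 3.93 and 4.17 FPKM with scrambled siRNA (log2 fold change 0.57, limma adjusted p = 0.01). It kept its call under every alternative. Fibrillin (Fbn1), which anchors latent complexes in the matrix, had a log2 fold change of 0.31 and thrombospondin (Thbs1), an activator, one of 0.25. The latent TGF-beta binding protein Ltbp1 fell by 0.25 on the log2 scale, and Ltbp2, named after its value was seen, fell by 0.22. With no filter on low values neither Ltbp1 (limma adjusted p = 0.0503) nor Ltbp2 (0.061) was called. The calls of Fbn1, Thbs1, Ltbp1 and Ltbp2 were each lost with any 1 library left out (adjusted p 0.056 to 0.084, 0.062 to 0.12, 0.078 to 0.16 and 0.12 to 0.17).

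Of 11 other tested receptors and co-receptors, 2 rose and none fell. Hfe2, which encodes the BMP co-receptor hemojuvelin, stood at 3.71 and 4.63 FPKM with lnc-31 siRNA, against 1.43 and 1.62 FPKM with scrambled siRNA, and kept its call under every alternative that tested it, which leaves out the filter at a mean of 5 FPKM. Its log2 fold change of 1.03 (SE 0.11, limma adjusted p = 0.0092) exceeded those of all 8 tested genes above. Tgfbr2, the type II receptor for TGF-beta, stood at 27.5 and 28.1 FPKM with lnc-31 siRNA and at 23.8 and 24.4 FPKM with scrambled siRNA (log2 fold change 0.20, limma adjusted p = 0.043). Its call was lost with any 1 library left out (0.11 to 0.16).

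None of 5 other tested Smads was called by limma, and the one with the smallest p, Smad3, was not called in any alternative fit. Smad3 stood at 12.6 and 12.8 FPKM with lnc-31 siRNA, against 11.31 and 11.95 FPKM with scrambled siRNA (log2 fold change 0.12, adjusted p = 0.21). Its unadjusted p of 0.078 was the lowest of the 5, so none was under 0.05.

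Among 6 other tested extracellular antagonists Grem1, a secreted BMP antagonist, fell to 49.5 and 53.6 FPKM with lnc-31 siRNA, against 76.0 and 74.6 FPKM with scrambled siRNA. Its log2 fold change was -0.54 (SE 0.051, limma adjusted p = 0.0069), and the call held under every alternative. The BMP antagonist Grem1 was thus lower while the activin antagonist Fst had a log2 fold change of 0.50 that did not pass. The difference between these genes was not tested.

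Of 25 intracellular regulators 1 rose. Tgif1, a Smad corepressor that is also a TGF-beta target, stood at 55.7 and 57.6 FPKM with lnc-31 siRNA, against 46.3 and 47.2 FPKM with scrambled siRNA (log2 fold change 0.27, limma adjusted p = 0.018). Leaving out lnc-31 siRNA 2 (0.072), scrambled siRNA 1 (0.093) or scrambled siRNA 2 (0.070) ended that call.

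Of 13 tested TGF-beta target genes 2 rose (Tgif1 and Col1a1) and 5 fell, beside 5.64% and 6.78% of all tested rows. Transgelin (Tagln), an actin-binding protein of smooth muscle, fell to 51.5 and 60.6 FPKM with lnc-31 siRNA, against 90.7 and 92.6 FPKM with scrambled siRNA (log2 fold change -0.70, limma adjusted p = 0.0094). Its call held under every alternative. Klf10, an early TGF-beta response factor, fell by 0.34 on the log2 scale, and its call ended when scrambled siRNA 1 (0.063) or scrambled siRNA 2 (0.053) was left out. The collagen gene Col1a1, also a fibroblast marker above, had a log2 fold change of 0.26 and lost its call with any 1 library left out (0.068 to 0.14). The other 3 that fell, named after their values were seen, were Ctgf (-0.33), Acta2 (-0.27) and Ankrd1 (-0.26), and with 1 library left out their adjusted p ran from 0.0497 to 0.15. Tagln, Acta2, Ctgf and Ankrd1 are also known targets of the transcription regulators SRF or YAP.

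Of 8 tested BMP target genes 1 fell and none rose. Id2, an inhibitor of basic helix-loop-helix factors, stood at 44.5 and 46.4 FPKM with lnc-31 siRNA and at 56.0 and 53.0 FPKM with scrambled siRNA (log2 fold change -0.26, limma adjusted p = 0.029), and lost its call with any 1 library left out (0.068 to 0.13). Of the 8 listed osteoblast markers 3 had a row (Runx2, Sp7 and Spp1) and none was called by limma, with 2 of them at an unadjusted p under 0.05. Their summed level, nearly all from Spp1, was 2221 and 2322 FPKM with lnc-31 siRNA, against 2554 and 2693 FPKM with scrambled siRNA.

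The 3 rows whose mean-centred log2(FPKM + 1) profile over the 4 libraries lay closest to that of Inhba were Serpinh1, a collagen chaperone (Euclidean distance 0.0087), Serinc2 (0.023) and Tgfbr3, the TGF-beta co-receptor betaglycan (0.024). Serpinh1 stood at 649 and 668 FPKM with lnc-31 siRNA, against 500.7 and 535 FPKM with scrambled siRNA. Tgfbr3 stood at 2.31 and 2.39 FPKM with lnc-31 siRNA, against 1.57 and 1.75 FPKM with scrambled siRNA. With 4 libraries this likeness mostly reflects the difference between the groups.

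**Figure D4:**
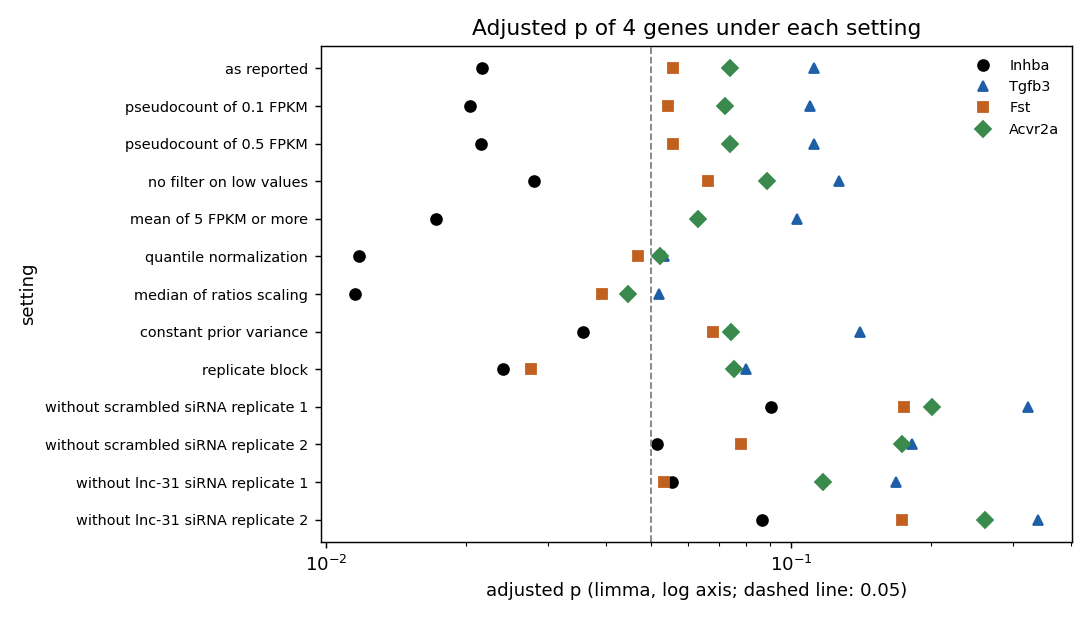
Adjusted p from limma on a log axis for Inhba, Tgfb3, Fst and Acvr2a, as reported and under each alternative setting, with a dashed line at 0.05 (Fst averages below 5 FPKM and has no point under that filter). Inhba lies left of the line in every setting that keeps all 4 libraries and right of it (0.052 to 0.091) with any 1 library left out.

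In the pull-down, which has no replicate and no test, neither probe set gave a peak in the gene span of any of the 10 genes. Among 12321 genes of the table placed on the RefSeq annotation, 1.78% held a peak with lnc-31 probes and 1.68% with lacZ probes, so 0 of 10 is near this background. Among the 91 other pathway genes placed, 2 held a peak with lnc-31 probes and 5 with lacZ probes. Bmpr2, the type II receptor for BMP, held 2 peaks with lnc-31 probes and none with lacZ probes (chromosome 1, 59874201 to 59874400 and 59875001 to 59875200, mm10, 200 bases each). It was named after its peaks were seen. The value read as the authors' p was 0.0093 for the first and 0.0048 for the other, in lists whose values run up to 0.01. Bmpr2 stood at 10.65 and 10.70 FPKM with lnc-31 siRNA, against 10.57 and 10.72 FPKM with scrambled siRNA (log2 fold change 0.00, limma adjusted p = 0.97). The second gene was Col1a2, whose only peak with lnc-31 probes was also a peak with lacZ probes. These counts cover pathway genes with an expression row, and 1 listed gene without such a row also held a peak with each probe set, at different positions.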

How the data were processed

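FPKM values were made and deposited by the authors from libraries of a stranded mRNA kit. Per the submitters' processing notes, the build was mm10 and the tools were Cuffdiff, TopHat2, BWA, Bowtie2, Trimmomatic and CASAVA, listed with no versions or order. The pull-down libraries came from a whole-transcriptome amplification kit, with cutadapt and Picard named in place of BWA and Cuffdiff. The tool that called the peaks is not named in these sources, and their last column was read as the authors' p-value per peak only because the deposited values lie above 0 and up to 0.01. FPKM is not a count. Low values showed no steps (of 1825 low rows, 8 shared the commonest ratio within 0.1%), so reads could not be recovered, and depth is unknown. The 4 matched columns were used and 0 others existed. An exact 0 stood in 132 rows, none of them a gene named here.

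The 11500 rows averaging at least 1 FPKM were taken as log2(FPKM + 1). The groups were compared in R 4.3.3 by limma 3.58.1, using a trended prior variance, two-sided, with Benjamini-Hochberg adjustment over all tested rows at 0.05. The fold change understates that of low genes. The fit was also run on simulated data, whose outcome is not given here, so that run is no support for the calls. Genes and lists were chosen with earlier results of these data known. Named genes were the 10 members, up to 4 called genes per list by smallest p (or the one with the smallest p), and the 3 nearest profiles of each called member. Of the 130 other pathway genes listed, 37 had no row and were not analysed here.

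Peaks were compared with RefSeq gene spans on GRCm38.p6 with a minimum overlap of 1 base, and promoter sequences come from RefSeq on the same build. Python 3.11.15, pandas 2.3.3, numpy 2.4.6, scipy 1.17.1 and matplotlib 3.10.9 were used. Alternatives were pseudocounts of 0.1 and 0.5, the replicate number as a block, a constant prior variance, scaling by median of ratios, quantile normalization, a filter at a mean of 5 FPKM or none, and each library left out in turn, where the lone library of a group is assumed to vary like the other group. The pull-down input library was not analysed here.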

Additional observations from a re-analysis of the deposited data

How the results depend on the processing

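Of the 10 genes, 1 was called higher, against 2 under quantile normalization (Inhba and Fst), 3 under median of ratios scaling (Inhba, Fst and Acvr2a), 2 with the replicate number as a block (Inhba and Fst) and 0 with any 1 library left out. None was called lower in any fit. Of the other pathway genes, 8 were called higher, against 14 under median of ratios scaling and 2 to 4 with 1 library left out, and 9 were called lower, against 3 with a constant prior variance and 2 to 4 with 1 library left out. Over all rows 649 were called higher (143 to 346 with 1 library left out) and 780 lower (157 to 293). These fits have fewer samples. The causes of the other shifts were not tested. Quantile normalization and median of ratios scaling moved the median of all rows by 0.00 and 0.01 (log2). Over all rows 947 were called higher under quantile normalization and 961 under median of ratios scaling, against 649. Of the other pathway genes 12 and 14 were called higher, against 8, and 9 were called lower under each of these 2 scalings. Without scrambled siRNA 2, 226 rows were called higher and 157 lower.

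The sign changed only for genes near 0: with 1 library left out, log2 fold changes ran from -0.063 (scrambled siRNA 2 out, and -0.011 with lnc-31 siRNA 2 out) to 0.087 for Tgfb1, from -0.012 (scrambled siRNA 1 out) to 0.10 for Tgfb2, and from -0.058 (scrambled siRNA 1 out) to 0.25 for Smad6. Of 309 further values for 26 named genes, 238 kept direction and side of the threshold, 63 lost a call, 4 gained one and 4 changed sign. The deviations of same-numbered libraries from their group means had a correlation of r = -0.094 over 11500 rows. With so few libraries per group this cannot decide whether the numbers pair the samples. The replicate block gave Fst an adjusted p of 0.028 and called 728 rows higher and 885 lower over all rows, and 11 and 6 of the other pathway genes. It ended the calls of Ltbp1 (0.052), Ltbp2 (0.060) and Ctgf (0.056). The pull-down count of 0 held at a last-column value of 0.001 or less, with 0.5 of the peak required to overlap, and with 5 kb of flank.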
